A study of Homo sapiens with 2 samples.

Results

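The heparan sulfate 3-O-sulfotransferases are a family of 7 genes, HS3ST1, HS3ST2, HS3ST3A1, HS3ST3B1, HS3ST4, HS3ST5 and HS3ST6, out of 20162 protein-coding genes of the annotation. The family was taken up because the HS3ST6 promoter had lower CpG methylation in cells with a HOXA5-directed methyltransferase than in control cells, so the family was chosen by the promoter levels of HS3ST6 in these same 2 libraries. Differences between the libraries are therefore given as descriptions, with no test. The other 6 genes were included by name. Methylation was read by whole-genome bisulfite sequencing (WGBS), in which unmethylated cytosines are read as T and methylated cytosines as C. For each gene, the promoter (1 kb either side of the gene start), the gene body and the 5-kb flanks were examined at CpGs with at least 1 read in both libraries.

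Both libraries came from HEK293T, an established human embryonic kidney cell line. The group dCas9+3A+HOXA5 held cells that were infected with lentiviral constructs for a nuclease-dead Cas9 carrying the SunTag epitope array, for a single-chain antibody fused to the de novo methyltransferase DNMT3A1, and for a guide RNA to HOXA5. These cells were collected at 30 days and sorted by fluorescence. The group Neg was the negative control, which the study describes as not transduced, although the labels attach the same infection text to both samples and separate them only by title. Each group was 1 library, so no difference between them has a replicate check, and infection, sorting and culture history cannot be told apart from the action of the construct. No library of sorted cells with the construct and without the guide was analysed here, and methylation alone gave no markers by which to check the cell line.

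Heparan sulfate is a long sugar chain on proteoglycans of the cell surface and matrix. In the Golgi its glucosamine units are sulfated at several positions, and 3-O-sulfation is the last and rarest of these steps. HS3ST1 makes the sites to which antithrombin binds, as in anticoagulant heparin. HS3ST2, HS3ST3A1, HS3ST3B1, HS3ST4 and HS3ST6 make sites of the kind bound by glycoprotein D of herpes simplex virus, and HS3ST5 makes both kinds. CpG-rich promoters are usually unmethylated, and dense methylation at a promoter goes with silencing of the gene.

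The sequence at which HS3ST6 differed most is shown first. It is the coding-strand sequence of part of the first coding exon, at chr16:1968011-1968277 (GRCh37, the coordinates of hg19, minus strand), with every CpG in capitals. HS3ST6 occupies chr16:1961476-1968416, and the stretch begins at the first of 33 CpGs, consecutive among those with reads in both libraries, that had no methylated read in dCas9+3A+HOXA5.
HS3ST6: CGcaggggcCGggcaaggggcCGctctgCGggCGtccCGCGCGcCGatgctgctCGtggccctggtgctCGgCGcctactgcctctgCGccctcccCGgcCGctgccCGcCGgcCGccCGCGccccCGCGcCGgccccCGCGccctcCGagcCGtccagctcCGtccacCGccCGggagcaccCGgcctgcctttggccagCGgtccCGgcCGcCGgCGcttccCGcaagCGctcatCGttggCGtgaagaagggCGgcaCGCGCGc
This stretch of 267 bases is 80.9% G or C and holds 44 CpGs, of which only the 33 had reads in both libraries. The 250 bases before the starts of HS3ST2 (chr16:22825233-22825482, plus strand) and HS3ST3B1 (chr17:14204148-14204397, plus strand) are set beside each other because both are CpG-rich and upstream of a start, and only the first held methylated reads, in Neg.
HS3ST2: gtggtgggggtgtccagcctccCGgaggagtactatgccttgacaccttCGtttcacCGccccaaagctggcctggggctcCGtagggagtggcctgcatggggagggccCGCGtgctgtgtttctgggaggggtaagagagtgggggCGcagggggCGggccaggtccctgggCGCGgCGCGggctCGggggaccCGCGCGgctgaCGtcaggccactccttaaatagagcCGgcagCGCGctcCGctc
HS3ST3B1: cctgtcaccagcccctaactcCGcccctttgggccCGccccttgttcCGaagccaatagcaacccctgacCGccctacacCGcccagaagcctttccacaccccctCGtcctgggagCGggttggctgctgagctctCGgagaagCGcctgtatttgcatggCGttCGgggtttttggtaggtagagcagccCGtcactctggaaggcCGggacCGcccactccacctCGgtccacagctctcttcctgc
The HS3ST2 sequence has 21 CpGs and the HS3ST3B1 sequence 15. Over these bases 14 CpGs of HS3ST2 had reads in both libraries, with 23 of 89 reads methylated in Neg and 0 of 29 in dCas9+3A+HOXA5. At HS3ST3B1 6 such CpGs had 0 of 31 and 0 of 6 methylated reads.

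The Neg file listed 23884726 CpGs with a mean of 3.795 reads, and the dCas9+3A+HOXA5 file 16170108 CpGs with a mean of 2.895 reads. The 14699127 CpGs with reads in both averaged 63.7% methylation in the first library and 69.5% in the second, a difference of 5.81 percentage points over the genome. At HOXA5, the locus of the guide, promoter methylation was 1.87% and 41.2% over 116 CpGs, which accords with the labels. A level below is the mean of the deposited methylation ratio over the CpGs of a region, given for Neg first and dCas9+3A+HOXA5 second. Reads summed over the region stand beside it with a 95% Wilson interval. Neighbouring CpGs share fragments, and no source used here states how duplicate reads were handled, so these intervals cover counting error only and are too narrow where 1 fragment covers many CpGs.

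Among the 7 promoters, HS3ST6 was the only one that differed by more than 20 points, and it was lower. Over all 18577 promoters with at least 5 such CpGs, 1.29% were lower and 4.48% higher by more than 20 points. By the mean over CpGs, the member next to the threshold was HS3ST1, at 9.12 points higher, whereas by summed reads it was HS3ST4. The median difference over the 7 promoters was 0.94 points, beside 1.35 points over all promoters. Wilson intervals of the 2 libraries did not overlap at 2 of the 7, lower at HS3ST6 and higher at HS3ST4, where 4.93% and 10.9% of all promoters were apart in these directions. By the mean over CpGs, the 6 promoters other than HS3ST6 differed by at most 9.12 points. By summed reads HS3ST4 was 16.7 points higher and HS3ST1 10.5 points higher.

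The family spanned a wide range of promoter methylation in Neg. HS3ST6 was highest, at 84.2%. HS3ST1 (36.9%) and HS3ST2 (36.7%) followed and could not be separated from each other, as their read intervals of 24.7–40.5% and 36.4–44.3% overlapped. HS3ST4 stood at 11.7%, and its interval (7.61–14.9%) overlapped with that of no other member. HS3ST5 (2.25%), HS3ST3A1 (1.54%) and HS3ST3B1 (0.92%) were lowest, and each overlapped with its neighbour in this order. In dCas9+3A+HOXA5, HS3ST1, HS3ST2 and HS3ST6 stood at 46.0%, 40% and 39.7% with overlapping intervals, so that HS3ST6 no longer stood above the others. Promoters under 20% in both libraries made up 4 of the 7, close to the 51.1% of all promoters.

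**Figure D1:**
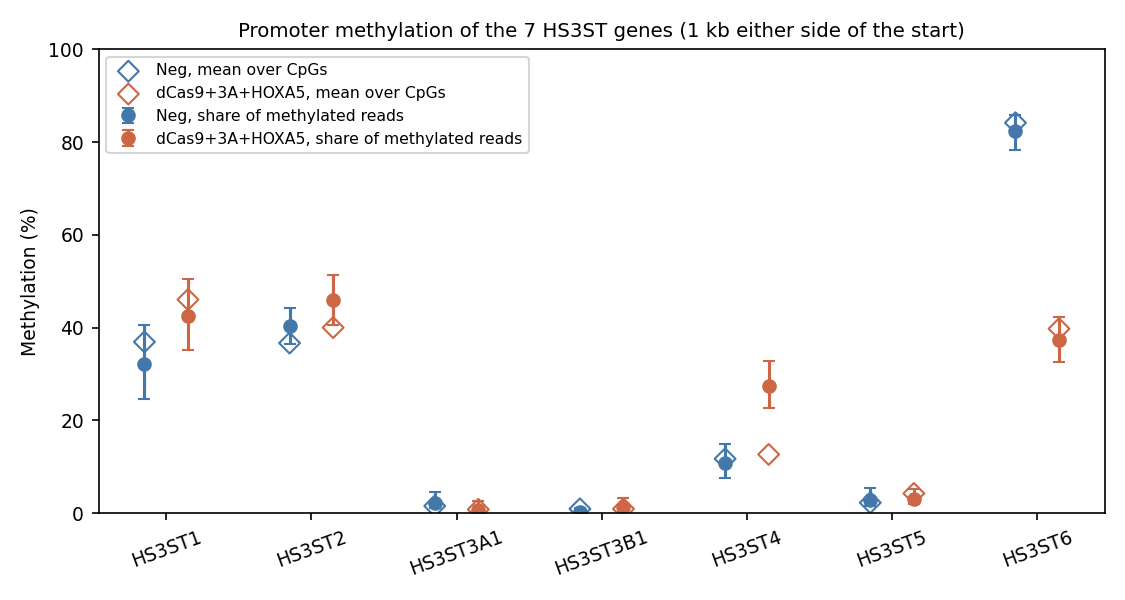
Promoter methylation (%, y axis) of the 7 HS3ST genes in Neg (blue) and dCas9+3A+HOXA5 (orange), 1 library each. Open diamonds are means over CpGs, and filled circles are shares of methylated reads with 95% Wilson intervals, which cover counting error only; HS3ST6 stands at 84.2% and 39.7%, and HS3ST4 differs by reads but not by the mean over CpGs.

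HS3ST6 is the member whose mutation is known in a form of hereditary angioedema. Over its 93 promoter CpGs, the level was 84.2% in Neg against 39.7% with the construct, a difference of -44.4 points. Methylated reads numbered 319 of 387 (Wilson interval 78.3–85.9%) and 139 of 373 (32.5–42.3%). Of the CpGs, 58 were lower, 12 higher and 23 equal in dCas9+3A+HOXA5, and 29 were fully methylated in Neg and unmethylated in the other library. Over all 18577 promoters, 0.0592% had a lower difference, down to -63.3 points. Only among promoters with at least 20 CpGs was this the second largest negative difference, between CRYGD (-56.4 points) and HUWE1 (-41.6 points). Of 2418 promoters with at least 80% in Neg, 2.27% were lower by more than 20 points, beside 1.29% of all promoters. These ranks and shares only describe the value by which the family was chosen.

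**Figure D2:**
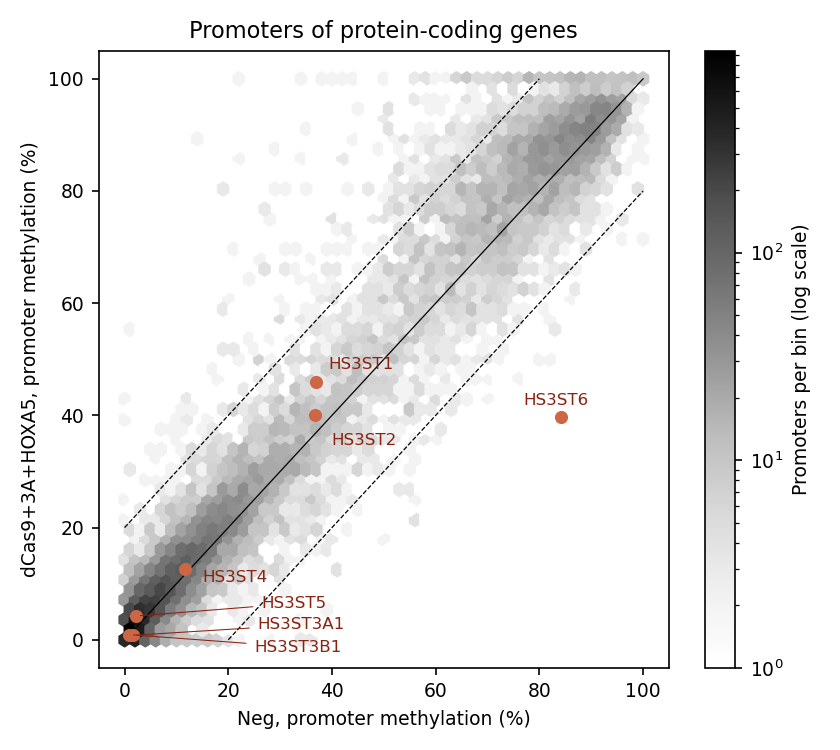
Promoter methylation (%) of 18577 protein-coding genes in Neg (x axis) and dCas9+3A+HOXA5 (y axis), as bins shaded by the number of promoters on a log scale, with the 7 HS3ST genes as orange points. The solid line marks equal levels and the dashed lines differences of 20 points; HS3ST6 alone among the 7 lies outside them.

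The difference at HS3ST6 was concentrated in the first exon. From +140 to +404 relative to the gene start, the 33 CpGs with reads in both libraries were all unmethylated in dCas9+3A+HOXA5, a span of 265 bp that lies within the coding part of exon 1. In Neg these CpGs averaged 89.2%, with 88 of 96 reads methylated (Wilson interval 84.4–95.7%). The run was taken as the longest stretch of promoter CpGs without a methylated read in dCas9+3A+HOXA5. Its 0 of 147 methylated reads there were therefore fixed by the choice and set no bound on the share. Of the 33 CpGs, 25 were fully methylated in Neg and unmethylated in the other library.

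Depth at single CpGs was low. No CpG of this run had more than 9 reads in Neg or 6 in dCas9+3A+HOXA5, and 6 of the 33 had at least 5 reads in both. At +400, +402 and +404, which had 9 reads in Neg and 5 with the construct, 8, 9 and 8 reads were methylated in Neg and none with the construct. At +402 this was 9 of 9 reads in Neg (Wilson interval 70.1–100%). The zeros with the construct at these CpGs were fixed by the choice of the run and set no bound on the share. Neighbouring CpGs can lie on the same fragment, so the number of molecules behind the run cannot be told from these counts. No CpG between -253 and +140 had reads in both libraries, and the upstream end of the run is therefore not known.

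Downstream of the run, the pattern broke up within the same exon. At +423, 9 of 9 reads were methylated in Neg and 5 of 5 in dCas9+3A+HOXA5, and at +441 the counts were 7 of 9 and 6 of 6. Between them, +434 had 6 of 8 and 0 of 5 methylated reads, and +437 had 3 of 8 and 0 of 5. Methylated and unmethylated CpGs thus alternated over a few bases in dCas9+3A+HOXA5. Over the last 12 CpGs of exon 1, from +405, the levels were 84.7% and 54.2%, and over the 16 CpGs from there to +1000 they were 59.0% and 43.7%.

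Upstream of the HS3ST6 start the difference was smaller. In the 500 bp before the start, 18 CpGs averaged 96.3% and 72.2%, with 43 of 45 and 16 of 24 methylated reads and no CpG above 2 reads in dCas9+3A+HOXA5. Between -1000 and -501, 14 CpGs averaged 84.9% and 74.7%, and their intervals of 67.5–84.8% and 70.0–87.0% overlapped. Single CpGs here went both ways. With the construct, 8 of 8 reads were methylated at -897, 7 of 7 at -600 and 8 of 8 at -584. In Neg these counts were 5 of 6, 13 of 14 and 9 of 12. At -549, -540 and -536 methylated reads were 6 of 7, 4 of 6 and 8 of 9 in Neg but 2 of 5, 1 of 5 and 1 of 5 with the construct. Read intervals of the libraries overlapped at each of these CpGs, higher or lower. Without the run of 33 CpGs, a choice made after the data had been seen, the promoter difference was -19.8 points, and so no longer past 20.

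**Figure D3:**
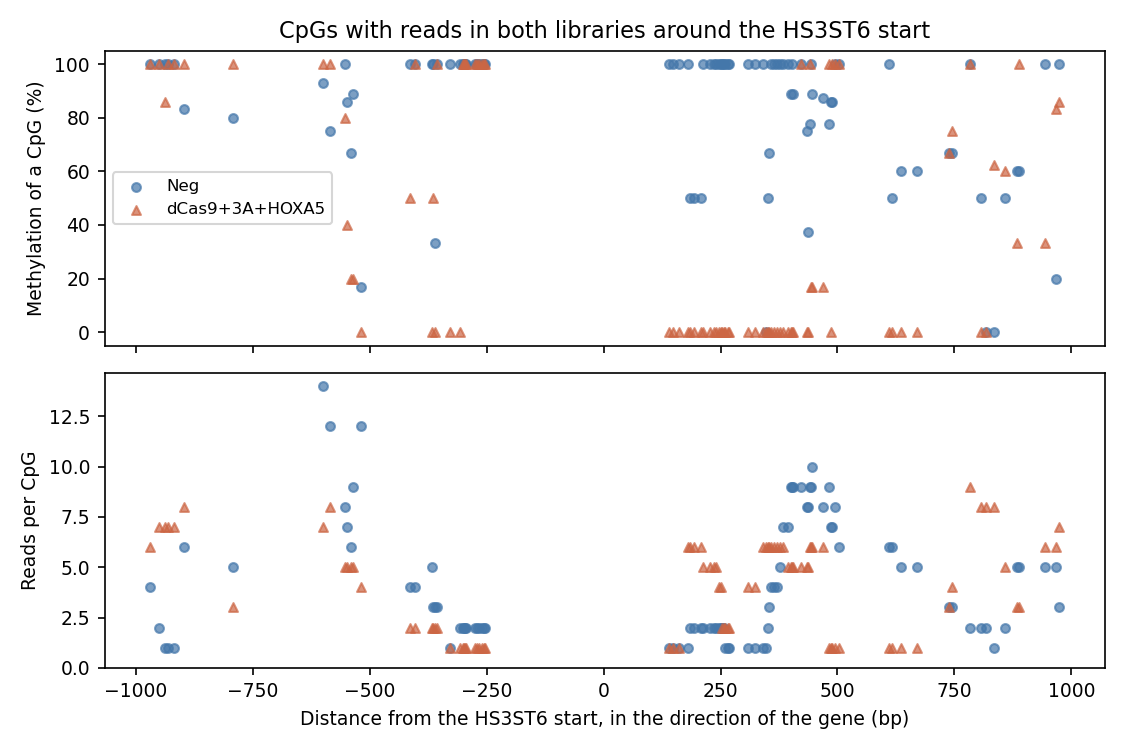
Single CpGs with reads in both libraries within 1 kb of the HS3ST6 start, by distance in the direction of the gene (bp), with methylation (%) above and reads per CpG below, in Neg (blue circles) and dCas9+3A+HOXA5 (orange triangles). From +140 to +404 all 33 orange points lie at 0 while the Neg points average 89.2%, and no CpG is plotted between -253 and +140.

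In 500-bp tiles, the lower methylation around the HS3ST6 start covered 1.0 kb, from -500 to +499. The tile from 0 to +499 went from 87.7% to 12.5% over 44 CpGs, with 164 of 188 and 17 of 190 methylated reads. Of 80 tiles within 20 kb, 5 were lower and 6 higher by more than 20 points. Of the lower tiles, 2 lie in the promoter by which the family was chosen. Within 5 kb of all protein-coding starts, 6.29% of tiles were lower and 15.6% higher. The other 3 lower tiles near HS3ST6 lay beyond the 3′ end of the gene, between 13 and 18 kb from the start. No other annotated gene starts within 20 kb of the HS3ST6 start. About 2 to 3 kb upstream lay a stretch of low methylation in both libraries, with tiles at 8.65% and 8.96% and at 8.97% and 13.3%. Low methylation was thus already present near the gene in Neg, though separated from the start by methylated tiles.

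HS3ST3A1 (chr17:13397349-13505246, minus strand) and HS3ST3B1 (chr17:14204398-14252721, plus strand) encode enzymes with nearly identical catalytic domains. Their promoters had the lowest mean levels of the family. Their read intervals overlapped with that of HS3ST5 in dCas9+3A+HOXA5, and that of HS3ST3A1 did so in Neg too. Over 104 CpGs of HS3ST3A1, 7 of 310 reads were methylated in Neg and 2 of 272 in dCas9+3A+HOXA5. Over 109 CpGs of HS3ST3B1, the counts were 1 of 509 and 4 of 318. CpGs at 0 in both libraries numbered 96 of 104 and 107 of 109, so both promoters were unmethylated at nearly every CpG in both libraries. At another annotated HS3ST3A1 start, about 45890 bp downstream, the promoter level was 92.15% and 95.83% over 28 CpGs.

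The unmethylated domain had CpGs that were more methylated in dCas9+3A+HOXA5 on both sides at HS3ST3B1 and on the upstream side at HS3ST3A1. The bounds of cores and edges were drawn after the CpG values had been seen, so the contrast between them is a description only. Around HS3ST3B1, the core from -1000 to +1999 stood at 1.43% and 1.30% over 154 CpGs. The 36 CpGs from -2000 to -1001 averaged 9.08% and 35.03%, with 8 of 150 and 36 of 133 methylated reads. The 15 CpGs from +2000 to +2499 averaged 10.1% and 57.8%, with 6 of 48 and 39 of 60 methylated reads. Both edges were therefore more methylated around a core that differed by less than 1 point as a whole. Within that core, the 2 CpGs from -1000 to -501 held 0 of 9 and 4 of 5 methylated reads. Around HS3ST3A1 the core stood at 1.53% and 1.79% over 158 CpGs. The 9 CpGs from -1500 to -1001 averaged 35.3% and 83.3%, with 17 of 48 and 12 of 14 methylated reads and no CpG above 2 reads in dCas9+3A+HOXA5. Downstream of its core, no tile within 5 kb had 3 CpGs with reads in both libraries, so only the upstream edge was seen.

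Over all 7 genes, 82 tiles within 5 kb of a start had at least 3 such CpGs, and 11 were higher and 7 lower by more than 20 points. Among 233976 such tiles of all protein-coding genes, 15.6% were higher and 6.29% lower. The pair HS3ST3A1 and HS3ST3B1 held 12 and 18 of the 82 tiles, of which 3 and 5 were higher and none lower. Lower tiles were at HS3ST1, HS3ST2 and HS3ST6, with 2 each, and at HS3ST4, with 1. The 2 at HS3ST6, from -500 to +499, lie in the promoter by which the family was chosen. That part of the count of lower tiles therefore followed from the choice.

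**Figure D4:**
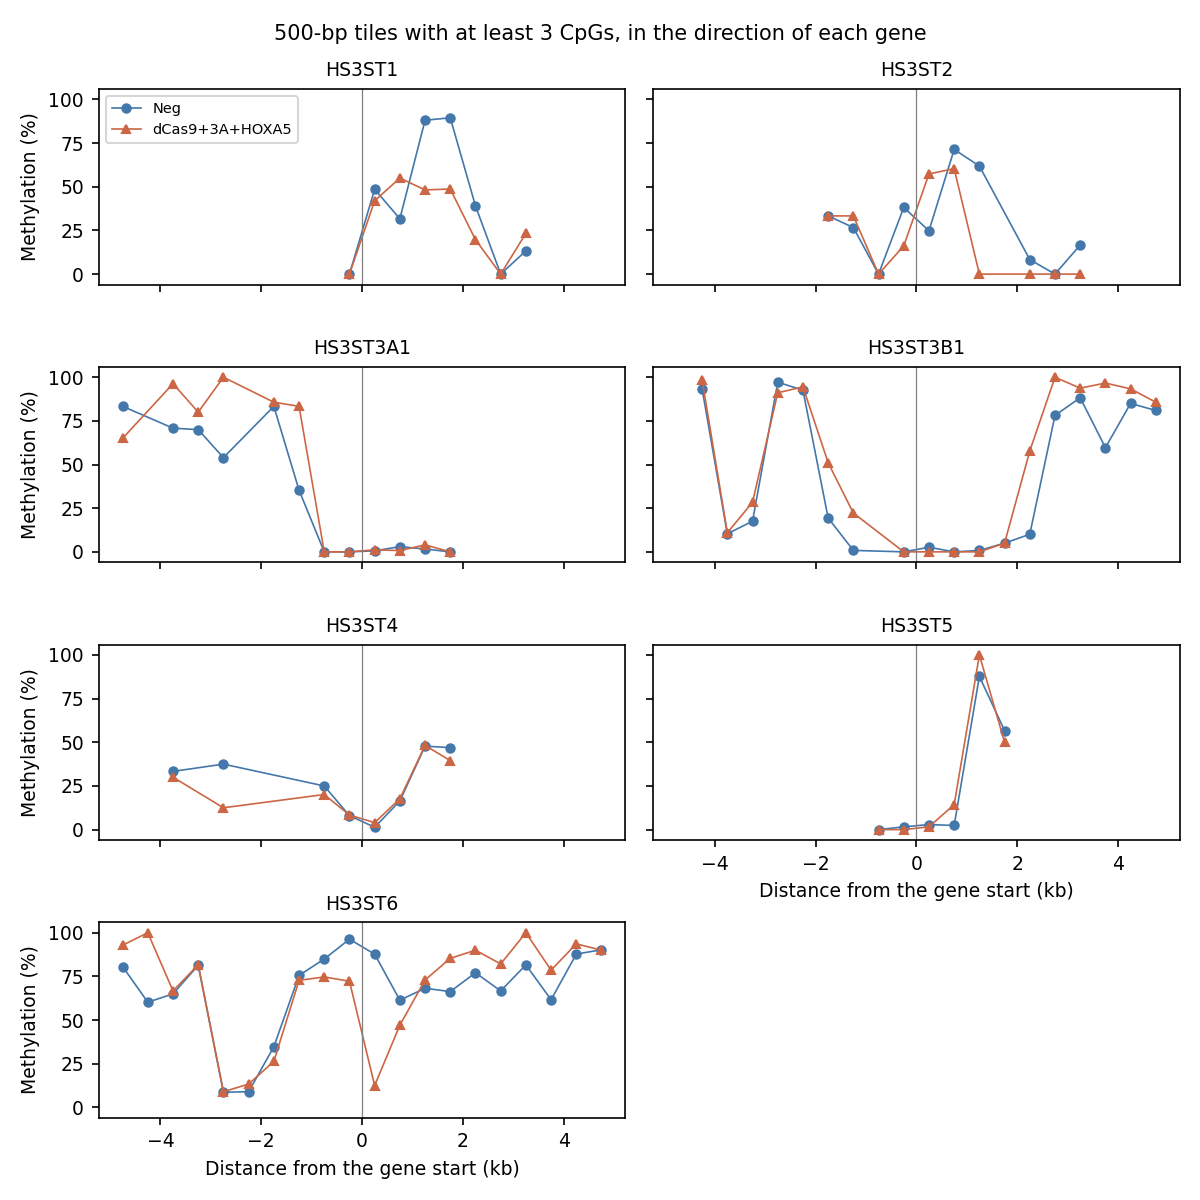
Methylation (%, y axis) of 500-bp tiles with at least 3 CpGs within 5 kb of each HS3ST start (x axis, kb in the direction of the gene) in Neg (blue circles) and dCas9+3A+HOXA5 (orange triangles). HS3ST6 dips to 12.5% after the start in dCas9+3A+HOXA5, and HS3ST3B1 keeps a core near 0 with edges that are higher in dCas9+3A+HOXA5.

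HS3ST2 (chr16:22825483-22927659, plus strand) is expressed mainly in brain, and its promoter is known to become methylated in several cancers. Over 135 CpGs its promoter level was 36.7% and 40%, with 237 of 588 and 150 of 327 methylated reads and overlapping intervals. This mean covered opposite differences along the promoter. From -500 to -1, 33 CpGs averaged 38.2% and 16.2%, with 72 of 182 and 16 of 82 methylated reads. From 0 to +499, 48 CpGs averaged 24.8% and 57.4%, with 50 of 159 and 67 of 119 methylated reads. HS3ST2 was thus lower before its start and higher after it. Its promoter difference of 3.34 points was 10.5 points with 500 bp either side, 10.8 points with at least 5 reads per CpG (8 CpGs) and -0.20 points with 2 kb either side.

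Further out, the HS3ST2 promoter had overlapping intervals on both sides. From -1000 to -501 none of 78 and 30 reads was methylated, which allows shares of up to 3.85% and 10.0%. From +500 to +999 the levels were 71.4% and 60.4%, with overlapping intervals. Beyond the promoter, from +1000 to +1499, 7 CpGs averaged 61.9% and 0.0%, with 5 of 13 and 0 of 29 methylated reads, so this tile rests on few reads in Neg.

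HS3ST4 (chr16:25703280-26149006, plus strand), which is also expressed mainly in brain, is the longest gene of the family at 445.7 kb. Over 87 CpGs its promoter level was 11.7% and 12.7%. By summed reads the shares were 10.7% (30 of 280) and 27.4% (80 of 292), and these intervals did not overlap. The 2 measures parted because of the last 13 CpGs, from +880 to +1000. These were at 49.2% and 54.4% and held 36 of the 280 reads in Neg but 122 of the 292 in dCas9+3A+HOXA5. The other 74 CpGs stood at 5.12% and 5.32%, so the mean over CpGs hardly differed while the reads were spread unevenly. Of the 87 CpGs, 12 were lower, 11 higher and 64 equal.

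HS3ST1 (chr4:11394774-11431188, minus strand), the antithrombin-site enzyme, had the sparsest promoter, with 55 CpGs and 131 and 155 reads. Its level was 36.9% and 46.0%, with 42 and 66 methylated reads and overlapping intervals. The sign of this difference depended on where the start was placed. At a second annotated start 670 bp downstream, which is also the RefSeq start, it was -2.86 points, with 2 kb either side -9.26 points, with 500 bp either side -5.77 points, and with at least 3 reads per CpG -8.74 points. Behind this lay opposite differences after the start. From +500 to +999 the 30 CpGs averaged 31.7% and 55.0%, with 15 of 76 and 27 of 62 methylated reads. From +1000 to +2499 the 49 CpGs averaged 70.8% and 38%, with 119 of 166 and 68 of 173 methylated reads. The lower stretch lay inside the gene, just beyond the promoter as drawn here.

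HS3ST5 (chr6:114376760-114664187, minus strand) makes both antithrombin-type and glycoprotein D-type sites. Its promoter was unmethylated, at 2.25% and 4.24% over 115 CpGs, with 9 of 311 and 14 of 450 methylated reads. CpGs at 0 in both libraries numbered 105 of 115, and with 500 bp either side the difference was -1.37 points. From +1000 to +1499 the 20 CpGs averaged 87.7% and 100%, with 122 of 141 and 63 of 63 methylated reads. HS3ST5 thus went from unmethylated to nearly full methylation within 2 tiles in both libraries, and none of its 6 tiles differed by more than 20 points.

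Gene bodies are usually methylated, with a median of 69.1% and 74.2% over 19428 bodies. None of the 7 HS3ST bodies differed by more than 20 points, where 0.412% of all bodies were lower and 2.58% higher. The median level of the 7 bodies was 52.5% and 59.4%, while the median of their differences was -1.50 points, beside 3.68 points over all bodies. In dCas9+3A+HOXA5, 3 of the 7 were higher and 4 lower, where 16064 of the 19428 were higher and 3307 lower. By Wilson intervals, 3 were apart and higher and 3 apart and lower, where 38.6% and 5.66% of all bodies were. Long bodies hold many reads, so small differences separate their intervals. No test was made of whether the 3 lower bodies exceed that background. HS3ST6 is among these, and its first 1 kb is part of the promoter by which the family was chosen. Without that 1 kb its body was 6.90 points higher. The count of lower bodies and the median of the differences thus partly followed from the choice.

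The 3 higher bodies were those of HS3ST5, HS3ST3B1 and HS3ST3A1. HS3ST5 went from 65.1% to 78.4% over 1037 CpGs, with 2858 of 4199 and 2366 of 3185 methylated reads. By summed reads the difference was 6.22 points instead of 13.4. Each of its 10 equal parts was higher by the mean over CpGs, by 6.54 to 21.4 points, but the first was lower by reads, with 383 of 683 and 330 of 722 methylated reads. HS3ST3B1 stood at 52.5% and 59.4% over 613 CpGs, and HS3ST3A1 at 66.2% and 69.5% over 719 CpGs. At HS3ST3A1 the sign depended on depth, with -2.25 points at a minimum of 3 reads and -3.97 points at a minimum of 5. HS3ST3A1 and HS3ST3B1 share stretches of at least 50 identical bases that hold 54 of 1329 and 51 of 967 of their body CpGs, mostly in exon 2, and reads there may have been assigned to either gene. Without these CpGs, again a choice made after the data had been seen, 699 CpGs of HS3ST3A1 and 608 of HS3ST3B1 were left. Their differences were 3.36 and 6.91 points. So few CpGs were removed that this cannot show whether reads were assigned to the wrong gene.

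The 3 lower bodies were those of HS3ST6, HS3ST1 and HS3ST4. HS3ST6 stood at 84.3% and 73.7% over 227 CpGs, with 1008 of 1193 and 441 of 686 methylated reads, a difference of -20.2 points by reads. Of its 10 equal parts, the first was at 86.3% and 13.3%, and 8 were higher in dCas9+3A+HOXA5. Without the first 1 kb, the HS3ST6 body was higher, at 85.8% and 92.7% over 166 CpGs. The lower mean of the HS3ST6 body thus came with its first part, and the other lower part differed by -0.94 points. HS3ST1 stood at 39.6% and 30.8% over 245 CpGs, with 324 of 793 and 277 of 841 methylated reads, and remained lower without its first 1 kb (-14.0 points) and over the 28 CpGs with at least 5 reads (-15.6 points).

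HS3ST4 and HS3ST2 had bodies with little methylation in both libraries. HS3ST4 averaged 12.0% and 9.87% over 1903 CpGs, with 758 of 5759 and 525 of 4812 methylated reads. Over the 39 CpGs with at least 5 reads the difference was -12.1 points instead of -2.10. Each of its 10 equal parts was under 20% in both libraries, from 5.79% to 19.7% in Neg and from 3.74% to 17.8% in dCas9+3A+HOXA5. The low level thus ran along the whole gene, and bodies under 20% in both libraries made up 3.96% of all bodies. HS3ST2 averaged 29.6% and 28.1% over 571 CpGs with overlapping intervals, and 3.78 points higher at a minimum of 3 reads.

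Among the 14 flanks, 2 differed by more than 20 points, both of them among the 7 downstream flanks, 1 higher and 1 lower. Of all 19263 downstream flanks, 8.20% differed by as much in either direction, 1386 higher and 193 lower. The 20 CpGs after HS3ST3A1 went from 65.5% to 92.1%, with 49 of 70 and 66 of 70 methylated reads. The 15 CpGs after HS3ST2 went from 23.2% to 0.0%, with 13 of 52 and 0 of 56 methylated reads. The flank of HS3ST3A1 was thus nearly full and that of HS3ST2 without a methylated read in dCas9+3A+HOXA5. The flanks of HS3ST1 held only 6 and 7 CpGs, with 4 of 15 and 0 of 8 methylated reads upstream and 4 of 21 and 0 of 14 downstream, and differences of that size were not detectable at this depth.

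Upstream flanks were poorly methylated in the family, with a median of 22.9% and 15.4% beside 54.2% and 59.9% over all genes. None of the 7 differed by more than 20 points, where 0.741% of all upstream flanks were lower and 5.29% higher. By summed reads HS3ST1 (-26.7 points, on 15 and 8 reads) and HS3ST3A1 (22.1 points) were past it. HS3ST2 was lower (22.9% and 12.2%, with 81 of 296 and 20 of 144 methylated reads), although by only -3.11 points over the 15 CpGs with at least 3 reads, and HS3ST3A1 (45.5% and 58.0%) and HS3ST3B1 (36.2% and 45.0%) were higher, with intervals apart at all 3, where 4.37% of all upstream flanks were apart and lower and 17.5% apart and higher. HS3ST6 stood at 57.4% and 53.7% upstream over 116 CpGs, although higher by 4.65 points by reads, and at 84.5% and 87.3% downstream over 99 CpGs. Within the upstream flank, the tile next to the start was lower, as described above.

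**Figure D5:**
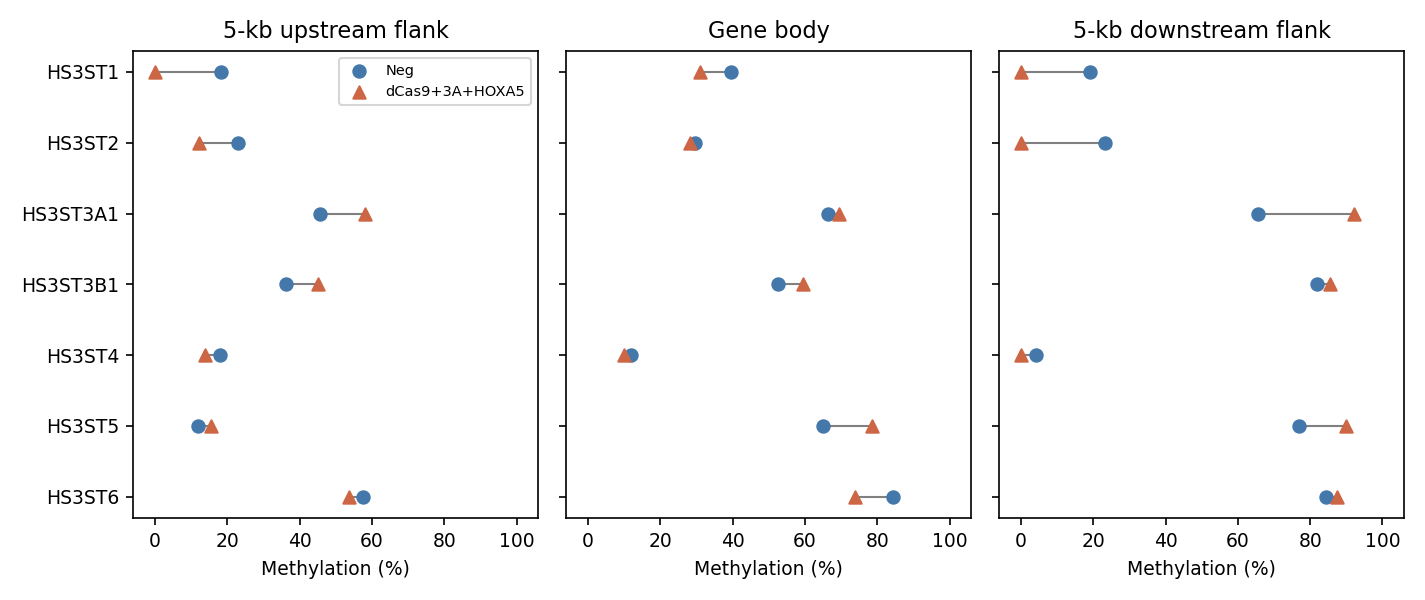
Methylation (%, x axis) of the 5-kb upstream flank, body and 5-kb downstream flank of each HS3ST gene in Neg (blue circles) and dCas9+3A+HOXA5 (orange triangles), joined by a line. HS3ST3A1, HS3ST3B1 and HS3ST5 are higher in all 3 regions, HS3ST1, HS3ST2 and HS3ST4 are lower in all 3, and the signs for the HS3ST2 and HS3ST3A1 bodies change with a minimum of 3 reads per CpG, as those of the HS3ST4 and HS3ST6 upstream flanks do by summed reads.

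The promoters of the family were rich in CpGs by sequence. The reference held 103 CpGs in the 2-kb promoter of HS3ST1 and 151 to 198 in the others, against a median of 90 over 20162 promoters. HS3ST6 had the highest G or C share of the 7, at 70.1%, and the lowest ratio of observed to expected CpGs, at 0.68. The unmethylated promoters of HS3ST3A1, HS3ST3B1 and HS3ST5 had 165, 151 and 168 CpGs and that of HS3ST6 had 168, so the number of CpGs alone did not set the methylated promoter apart. Reads in both libraries covered 55.4% of the HS3ST6 CpGs and 45.5% of those of HS3ST4, the lowest share. In the RefSeq promoters (GRCh38, 250 bases before to 50 after the start), GGGCGG on either strand, the core of the GC box bound by SP1, occurred in all 7, from 1 match in HS3ST1, HS3ST4 and HS3ST5 to 5 in HS3ST3B1, with 3 in HS3ST6. Of all 35120 such promoters, 45.0% hold it.

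The depth of the gene bodies played no part in the choice of the family. It was compared as reads summed over the CpGs listed for each library, relative to the sum over all bodies. The ratio of dCas9+3A+HOXA5 to Neg was 0.917 at HS3ST6 (95% counting interval 0.838–1.003). It was highest at HS3ST1, at 1.48 (1.36–1.61), and lowest at HS3ST3B1, at 0.863 (0.814–0.914). All 7 lay within the central 95% of 18934 genes, from 0.419 to 1.58. Relative depth over these genes therefore stayed within the range of genes at large.

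The other genes of heparan sulfate synthesis, modification and display were examined as a list of 37. Their median promoter level was 8.63% and 11.8%, with a median difference of 2.82 points. None was lower by more than 20 points and 2 were higher, where 1.29% and 4.48% of all promoters were. SULF1, which removes 6-O-sulfates at the cell surface, went from 0.0% to 55.6% over 9 CpGs, with 0 of 30 and 12 of 22 methylated reads. GPC3, a glypican core protein, went from 45.6% to 74.0% over 23 CpGs, with 45 of 100 and 55 of 78 methylated reads. With 500 bp either side of the start neither was past 20 points, at 20 points for SULF1 and 8.12 points for GPC3, and with 2 kb either side GPC3 was at 10.3 points. Intervals were apart and higher at 8 of the 37 and apart and lower at 2, beside 10.9% and 4.93% of all promoters, but at B3GAT3, GPC2 and B4GALT7 the mean over CpGs differed in the opposite direction to the reads.

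The promoters whose pair of levels lay nearest to those of HS3ST6, by distance in points among promoters with at least 20 CpGs, were those of SLC52A3, SYT13, PCDHGA10, ADAMTS2 and SERPINA1. SLC52A3, a riboflavin transporter gene, was nearest, at 78.1% and 45.7% over 23 CpGs and a distance of 8.48 points. SYT13 stood at 76.9% and 46.4% and ADAMTS2, a procollagen peptidase gene, at 75.3% and 45.8%. PCDHGA10 stood at 81.4% and 49.8% and SERPINA1 at 74.8% and 45.2%. Each was lower than HS3ST6 in Neg and higher in dCas9+3A+HOXA5. As HS3ST6 had the second largest negative difference among promoters with at least 20 CpGs, the smaller differences of these 5 followed almost wholly from the choice.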

How the data were processed

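CpG methylation was measured by WGBS in 1 Neg and 1 dCas9+3A+HOXA5 library of HEK293T cells, and groups were taken from the sample titles. As its methods describe, the authors trimmed reads, aligned them to hg19 with BSMAP (2.90 per the processing notes of the submitters) and computed a methylation ratio per CpG. Per the file headers, the deposited tables give the count of C and of C or T reads, an estimated count that allows for C-to-T variants seen on the other strand, and the ratio as a fraction with its bounds. The study set a minimum of 5 reads, whereas the deposited files also list CpGs with fewer; CpGs with at least 1 read in both were used here, and minima of 3 and 5 were tried. At least 99.8% of listed positions on the main chromosomes were a CG in GRCh37 in either file. Gene positions came from GENCODE release 44 on GRCh37, and sequences from that assembly. RefSeq promoters (GRCh38) were used only for the motif and were matched to GRCh37 by sequence.

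Regions needed at least 5 CpGs and 500-bp tiles at least 3. Other stretches had bounds chosen after the CpG values had been seen. Offsets were counted in the direction of the gene from its first base, at 0, to the plus-strand C of the CpG. A floor is 3 reads over the reads of a region. CpGs with at least 5 reads made up 29.9% of those on the main chromosomes in Neg and 17.5% of those in dCas9+3A+HOXA5. No test was run, since each group was 1 library and the family was chosen on the contrast. The members, the list of heparan sulfate genes and the thresholds were chosen with earlier results of these data known. The genes named were the 7 members, listed heparan sulfate genes past 20 points (at most 5 in each direction), the 5 promoters nearest to HS3ST6 and genes starting within 20 kb of it. CRYGD and HUWE1, and B3GAT3, GPC2, B4GALT7, HSPG2 and HS6ST2, were named after their values were seen. The computation of region levels was tested on simulated data. Python 3.11.15, numpy 2.4.6, pandas 2.3.3, scipy 1.17.1 and matplotlib 3.10.9 were used. Protein sequences were not used here.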

Additional observations from a re-analysis of the deposited data

How the results depend on the processing

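The HS3ST6 promoter was lower under every alternative tried. Its difference of -44.4 points became -30.0 points with 2 kb either side of the start, -60.4 points with 500 bp either side and -19.8 points without the 33 CpGs of exon 1. It was -40.8 and -46.8 points with minima of 3 and 5 reads, -45.2 points by summed reads and -45.0 points without CpGs with variant evidence. The 1.0-kb extent of lower methylation was 0.5 kb with a minimum of 5 reads, which left 25 of 80 tiles, and 1.5 kb with 250-bp tiles. HS3ST6 was the 1 promoter past 20 points under each alternative tried for all 7, although only 3 of the 7 could be examined at a minimum of 5 reads.

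Counts of other regions past 20 points moved with the minimum of reads and with the measure. Of the 7 bodies 0 were past it, and 1 with a minimum of 5 reads or by summed reads, in both cases HS3ST6 (-35.0 and -20.2 points). Of the 14 flanks 2 were past it, 0 of the 4 left at a minimum of 5 reads, and 4 by summed reads, with the upstream flanks of HS3ST1 and HS3ST3A1 added. Of the other heparan sulfate promoters 2 were past it, SULF1 and GPC3. With a minimum of 5 reads, which left 17 of the 37 and neither of these, 1 was (HSPG2, 24.1 points over 13 CpGs). With 2 kb either side 1 was (SULF1), with 500 bp either side 0, and by summed reads 4 (SULF1, GPC3, GPC2 and HS6ST2). Over all member regions and alternatives, 33 differences moved beyond their counting interval, among them the 3 of the HS3ST6 promoter given first, and 93 did not.

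No paired analysis was possible because neither group had more than 1 library. Leaving out a library was likewise not possible, and culture-to-culture spread cannot be told apart from the difference between the groups. Depth limits single CpGs, with a median of 3 reads in Neg and 2 with the construct.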
